A study of Mus musculus with 45 samples.

Results

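The interferon response genes are transcripts that mammalian cells raise after an interferon binds its receptor, and 41 of them were followed here by gene symbol through bulk RNA sequencing of mouse pancreatic islets. All 41 genes occur once in the deposited matrix of 22904 genes, and all 41 were among the 20306 genes that passed the filter on low counts. By role they are 10 sensors of foreign or displaced RNA and DNA, 4 transcription factors, 8 genes of the ISG15 system with ubiquitin ligases and ADP-ribosyltransferases, 14 effectors, and 5 GTPases.

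Islets of Langerhans are the clusters of endocrine cells in the pancreas that secrete insulin, glucagon and other hormones. They came from wild-type mice of 3 inbred strains that were given no drug or other treatment beyond the diet. NZO/HlLtJ is an obese, diabetes-prone strain, CAST/EiJ is a wild-derived strain, and C57BL/6J is a common laboratory strain. From 6 weeks of age the mice ate either a diet rich in fat and sugar (44% fat) or a control diet (10% fat), both with fiber, and islets were taken at 16 weeks. On 44% and 10% fat the libraries numbered 3 and 3 for NZO/HlLtJ males, 4 and 4 for NZO/HlLtJ females, 4 and 3 for CAST/EiJ males, 4 and 4 for CAST/EiJ females, and 4 and 4 for C57BL/6J of either sex. The diets differ in sugar as well, so the fat percentage names a diet and not a single nutrient.

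Interferons are secreted proteins in 3 classes. Type I interferons (alpha and beta) act through Ifnar1 and Ifnar2, type II (gamma) through Ifngr1 and Ifngr2, and type III (lambda) through Ifnlr1 and Il10rb. The receptors switch on Janus kinases, and a transcription factor complex that holds STAT2 and IRF9 then binds the interferon-stimulated response element in target promoters. Interferon gamma acts mainly through another promoter element, the gamma-activated site, which gives an overlapping set of targets such as the guanylate binding proteins. Beta cells and islet macrophages can both answer interferons, and an interferon signature in islets is best known from type 1 diabetes.

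The best known element of interferon target promoters is the response element, so it was looked up in RefSeq promoter sequences of GRCm38.p6, from 250 bases before to 50 bases after each annotated start. Of the 41 genes, 33 had a promoter in that table. The element's core GAAANNGAAA was found on either strand in 17 of these 33 genes (51.5%), against 3.99% of 27025 genes with a promoter in the table. The gamma-activated site TTCNNNGAA was found in 8 of 33 (24.2%), against 9.55% of the same genes. A match is a string of letters and not a measured binding site. The stretches below carry the core in 7 members whose values are given further on, on the strand of the gene, with every matching base in capitals, so that overlapping matches run together.
Isg15: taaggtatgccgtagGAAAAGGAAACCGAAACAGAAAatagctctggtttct
Ifit3: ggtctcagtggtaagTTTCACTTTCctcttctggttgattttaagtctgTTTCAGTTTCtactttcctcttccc
Ifit1: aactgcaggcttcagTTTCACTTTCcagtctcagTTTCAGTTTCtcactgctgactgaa
Oas3: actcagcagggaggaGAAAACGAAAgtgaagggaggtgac
Oas1a: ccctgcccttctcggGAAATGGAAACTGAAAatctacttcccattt
Gbp2: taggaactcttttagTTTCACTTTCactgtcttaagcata
Bst2: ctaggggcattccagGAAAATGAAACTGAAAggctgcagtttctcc
The Isg15 stretch lies at chr4:156200860-156200911 on the minus strand and holds 3 overlapping matches, from -78 to -57 relative to the annotated start. The Ifit3 stretch lies at chr19:34583358-34583431 on the plus strand with 2 matches, and the Ifit1 stretch at chr19:34640770-34640828 on the plus strand, also with 2. The Oas3 stretch is at chr5:120777710-120777749 and the Oas1a stretch at chr5:120907515-120907560, both on the minus strand. The Gbp2 stretch is at chr3:142620589-142620628 on the plus strand, and the Bst2 stretch at chr8:71537572-71537617 on the minus strand. The core was not found in the windows of the other 16 matched genes. Of those 16, 13 were called higher for diet in NZO/HlLtJ in the comparison below, among them Irf7, Sp100, Ifit2, Ifi44 and Oasl2, and 3 were not called (Trim25, Cmpk2 and Samd9l). Zbp1 had no promoter in the table.

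The libraries held 57.2 to 110 M estimated counts, with a median of 84.4 M. Levels are counts per 1e+06 counts (CPM) after scaling by edgeR's TMM composition factors, which ran from 0.486 to 1.18. The factor of 0.486 belongs to CAST/EiJ female 10% fat replicate 4, whose 17 acinar (digestive enzyme) markers summed to 777000 CPM. Islet hormone genes stood high in all 45 libraries, with Ins2 between 28600 and 98000 CPM. Xist was 531 to 1940 CPM in the 24 libraries labelled female and at most 15.4 CPM in the 21 labelled male. In 5 libraries, transcripts nearly absent from the library's own strain (at most 0.05 CPM on 10% fat) were found at 1.26% to 9.22% of the level in another strain. They were CAST/EiJ female 44% fat replicates 1 (9.22%), 2 (3.73%) and 4 (3.58%), C57BL/6J female 44% fat replicate 2 (2.04%) and NZO/HlLtJ male 44% fat replicate 3 (1.26%). The highest value among the other 40 libraries was 0.791%. The genes used were chosen on levels on 10% fat, and all 5 libraries are on 44% fat. Whether diet raised those genes was not tested. For short, the 5 are called libraries that carry transcripts of another strain. Whether every library is from its own mouse is not in the labels, and p-values here cover only the spread among libraries. In bulk islets, fewer cells of a type and less RNA per cell cannot be told apart.

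The mean log2 CPM over the 41 genes put the groups in a clear order. NZO/HlLtJ males on 44% fat were highest, at 5.11 ± 0.13 (SD, n = 3), against 3.85 ± 0.16 (n = 3) in NZO/HlLtJ males on 10% fat. NZO/HlLtJ females on 44% fat averaged 3.5 ± 0.65 (n = 4), and those on 10% fat 2.93 ± 0.13 (n = 4). The 15 CAST/EiJ libraries lay between 1.61 and 2.24, and the 16 C57BL/6J libraries between 2.54 and 3.23. No CAST/EiJ library reached the lowest C57BL/6J library, and all NZO/HlLtJ males lay above every library of either other strain. NZO/HlLtJ females on 10% fat (2.77 to 3.08) overlapped C57BL/6J. Gene by gene, the highest group mean was in NZO/HlLtJ males on 44% fat for 39 of 41 genes, the exceptions being Trim25 and Cmpk2, which were highest in C57BL/6J. The lowest group mean was in a CAST/EiJ group for 37 of 41.

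**Figure D1:**
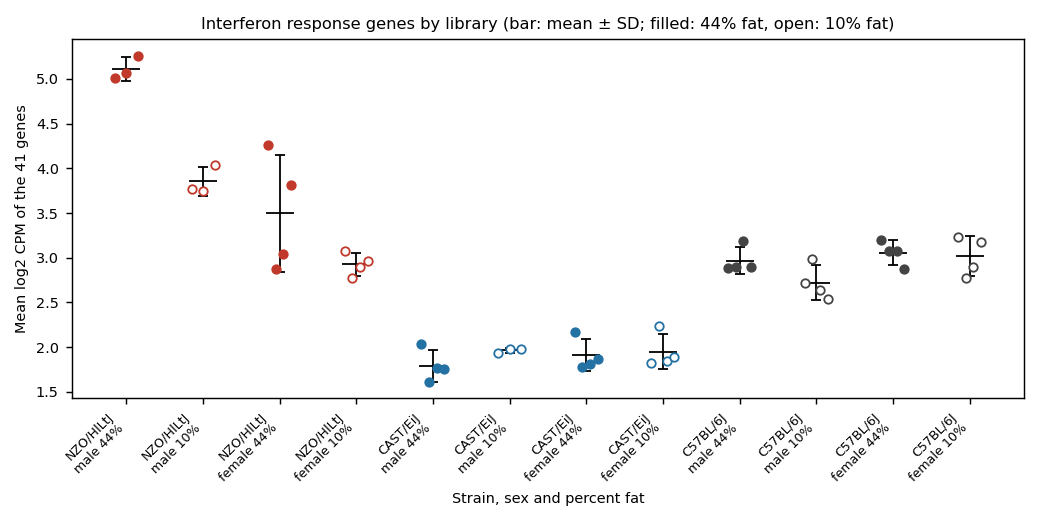
Mean log2 CPM of the 41 interferon response genes in each of the 45 libraries (vertical axis), by strain, sex and diet (horizontal axis); filled points are 44% fat, open points 10% fat, and bars give the mean and SD. NZO/HlLtJ males on 44% fat sit at 5.01 to 5.26, NZO/HlLtJ females on 44% fat spread from 2.87 to 4.26, and all CAST/EiJ libraries sit at or below 2.24.

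In NZO/HlLtJ, 38 of the 41 genes were higher on 44% than on 10% fat as a mean over the sexes, and none was lower, with a median log2 fold change of 0.82. Over all genes tested, 17.3% were called higher and 16.9% lower in this comparison, with a median of -0.019. Fold changes ran from 0.02 for Cmpk2 to 2.89 for Oas3. All 10 sensors, all 4 transcription factors and all 5 GTPases rose, as did 7 of 8 genes of the ISG15 system and its ligases and 12 of 14 effectors. The 3 genes not called were Trim25 (0.10, SE 0.075), Cmpk2 (0.02, SE 0.13) and Samd9l (0.20, SE 0.098, adjusted p = 0.111). Split by sex, 36 of 41 rose in males, with a median of 1.36, where 14.9% of all genes were called higher and 14.4% lower. In females 19 of 41 rose, with a median of 0.68, where 8.33% of all genes were called higher and 7.42% lower.

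The sensors detect viral or misplaced nucleic acids. Oas3 (ENSMUSG00000032661, chromosome 5, 120753098 to 120777661, GRCm38), a synthetase of 2-5A, the messenger that starts RNase L, showed the largest change. Its level was 6.51, 8.8 and 12.8 CPM in males on 44% fat, against 0.895, 1.25 and 1.77 CPM in males on 10% fat. In females it was 2.7, 0.352, 0.518 and 1.9 CPM on 44% fat, against 0.124, 0.158, 0.236 and 0.191 CPM on 10% fat. Every library on 44% fat stood above every library on 10% fat of its sex, and the 4 females on 44% fat fell into a higher and a lower pair. The log2 fold change was 2.89 (SE 0.37, adjusted p = 3.19e-07), and 1.65 with limma on the deposited log2 values.

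Zbp1 (ENSMUSG00000027514, chromosome 2, 173206612 to 173218923), a sensor of Z-form nucleic acids that can start necroptosis, followed the same layout. Males had 10.7, 11.6 and 15.6 CPM on 44% fat, against 1.95, 1.7 and 2.57 CPM on 10% fat. Females had 4.44, 0.736, 0.958 and 2.19 CPM on 44% fat, against 0.433, 0.232, 0.442 and 0.191 CPM on 10% fat. The diets did not overlap within either sex, and the fold change was 2.64 (SE 0.41, adjusted p = 7.82e-06), or 1.71 with limma on the deposited log2 values. Eif2ak2 (ENSMUSG00000024079, chromosome 17, 78852564 to 78882573), which encodes PKR, the kinase that stops translation on double-stranded RNA, had the smallest change of the sensors. It was at 38.1, 41 and 36.1 CPM in males on 44% fat, against 29, 30.6 and 29.6 CPM in males on 10% fat. Females had 37.7, 29.1, 30.8 and 25.2 CPM on 44% fat, against 28.9, 30.4, 25.8 and 28.5 CPM on 10% fat. Males separated by diet and females overlapped. Its fold change of 0.24 (SE 0.092, adjusted p = 0.0409) was no longer called when any of 10 of the 14 NZO/HlLtJ libraries was left out, with adjusted p up to 0.118. Over all 22 alternatives, DESeq2 and limma among them, 13 lost the call. Its fold change there ran from 0.11 to 0.28 and its adjusted p from 0.0127 to 0.61.

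The other sensors rose by 0.41 to 1.82. The cytosolic RNA helicases Ifih1 (which encodes MDA5) and Ddx58 (RIG-I) rose by 0.41 (SE 0.13) and 0.51 (SE 0.083), and their relative Dhx58 (LGP2) by 1.11 (SE 0.20). The 2-5A synthetases Oas1a and Oas2 rose by 1.44 (SE 0.19) and 1.82 (SE 0.33). The OAS-like genes Oasl1 and Oasl2 rose by 0.77 (SE 0.24) and 1.28 (SE 0.22). Oas1a has close copies in the mouse genome, and reads shared with them could be counted differently, so its values are less certain.

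Among the transcription factors, Irf7 is the main amplifier of type I interferon production, and Irf9 and Stat2 are subunits of the complex that binds the response element. Irf7 (ENSMUSG00000025498, chromosome 7, 141262706 to 141266481) had 37.9, 50.8 and 73.7 CPM in males on 44% fat, against 8.34, 15.9 and 18.4 CPM in males on 10% fat. In females it had 15.4, 3.52, 4.01 and 14.5 CPM on 44% fat, against 5.01, 3.58, 4.33 and 4.55 CPM on 10% fat. Males did not overlap, while in females replicates 1 and 4 on 44% fat stood apart and replicates 2 and 3 lay at 3.52 and 4.01 CPM, within or just under the range of 10% fat. The fold change was 1.51 (SE 0.25, adjusted p = 2.14e-05).

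Irf9 (ENSMUSG00000002325, chromosome 14, 55603571 to 55610030) had 35.7, 35.2 and 46.3 CPM in males on 44% fat, against 23.7, 18.1 and 23.4 CPM on 10% fat. Females had 25.2, 11.1, 10.4 and 17.8 CPM on 44% fat, against 13.5, 13.9, 11.9 and 12.2 CPM on 10% fat. Again replicates 1 and 4 on 44% fat were above all females on 10% fat and replicates 2 and 3 below them, with a fold change over both sexes of 0.59 (SE 0.16, adjusted p = 0.00355). It was not called with library totals alone (adjusted p = 0.0891, with the lowest over the alternatives at 0.000733). Irf1 (ENSMUSG00000018899, chromosome 11, 53770014 to 53778374), the factor most tied to interferon gamma, had 61.9, 65.1 and 62.3 CPM in males on 44% fat, against 45.3, 35.7 and 47.9 CPM on 10% fat. Females had 48.3, 22.3, 26.4 and 42.1 CPM on 44% fat, against 31.9, 27, 31.6 and 31 CPM on 10% fat. Its fold change was 0.38 (SE 0.11, adjusted p = 0.0101), which was not called without male 10% fat replicate 2 (adjusted p = 0.063, with a range of 0.000807 to 0.261 over the alternatives). Stat2 rose by 0.51 (SE 0.13). Irf7 overlaps Phrf1 on the other strand and Irf9 overlaps Rnf31 on the same strand, and no source used here says whether counting was stranded, so shared reads cannot be told apart.

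ISG15 is a small ubiquitin-like protein that is attached to other proteins after an interferon signal, and Usp18 removes it and damps the receptor. Isg15 (ENSMUSG00000035692, chromosome 4, 156199424 to 156200818) had 10.5, 11.3 and 10.6 CPM in males on 44% fat, against 2.37, 2.22 and 3.87 CPM in males on 10% fat. Females had 3.44, 1.12, 1.38 and 2.68 CPM on 44% fat, against 1.02, 0.798, 0.786 and 1.21 CPM on 10% fat. In females only replicate 2 on 44% fat fell within the range of 10% fat, and the fold change was 1.56 (SE 0.25, adjusted p = 7.86e-06). Trim30a (ENSMUSG00000030921, chromosome 7, 104409025 to 104465193), a ligase of the tripartite motif family, had 22, 24.9 and 30.1 CPM in males on 44% fat, against 10.1, 9.48 and 10.2 CPM on 10% fat. Females had 11.5, 6.29, 6.9 and 9.61 CPM on 44% fat, against 6.5, 6.23, 5.87 and 4.97 CPM on 10% fat. Only females overlapped, again through replicate 2, and the fold change was 0.96 (SE 0.19, adjusted p = 0.000126).

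Trim25 (ENSMUSG00000000275, chromosome 11, 88999376 to 89020293), the ligase that activates RIG-I, showed no such separation. It was at 80.2, 107 and 86.2 CPM in males on 44% fat, against 91.6, 78.5 and 64.6 CPM on 10% fat. Females had 104, 83.5, 95.6 and 75.9 CPM on 44% fat, against 82, 92.2, 98.9 and 92.5 CPM on 10% fat. The diets overlapped in both sexes, and the fold change of 0.10 (SE 0.075, adjusted p = 0.349) was -0.04 when scaled by library totals alone. In the same group Usp18 rose by 0.50 (SE 0.13), the ISG15 ligase Herc6 by 0.79 (SE 0.14), and the ADP-ribosyltransferases Parp9 and Parp14 by 0.55 (SE 0.094) and 0.59 (SE 0.13). Dtx3l, the ubiquitin ligase that works with PARP9, rose by 0.38 (SE 0.095). Dtx3l and Parp9 overlap on opposite strands, so their counts may share reads.

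The effectors act on viral RNA, membranes and nucleotides. Ifit3 (ENSMUSG00000074896, chromosome 19, 34583531 to 34588731), of the IFIT family that binds foreign RNA, had 23.5, 33.8 and 21.2 CPM in males on 44% fat, against 3.3, 5.33 and 8.09 CPM on 10% fat. Females had 8.45, 1.49, 2.65 and 6.54 CPM on 44% fat, against 2.64, 1.04, 1.7 and 2.21 CPM on 10% fat. Males separated by diet, replicate 2 of the females on 44% fat did not, and the fold change was 1.79 (SE 0.33, adjusted p = 8.4e-05). A near copy, Ifit3b, rose by 1.44 (SE 0.32), and reads may be divided between the pair.

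Sp100 (ENSMUSG00000026222, chromosome 1, 85649988 to 85709998), a component of PML nuclear bodies, had 32.6, 40.3 and 52.3 CPM in males on 44% fat, against 8.8, 11.5 and 15.1 CPM on 10% fat. Females had 14.1, 6.53, 9.12 and 13.9 CPM on 44% fat, against 5.77, 5.23, 5.12 and 4.92 CPM on 10% fat. No library overlapped across diets within a sex, and the fold change was 1.44 (SE 0.24, adjusted p = 2.26e-05). Cmpk2 (ENSMUSG00000020638, chromosome 12, 26469204 to 26479835), a mitochondrial nucleotide kinase that lies next to Rsad2, had 39.8, 36 and 24.8 CPM in males on 44% fat, against 30.3, 30.5 and 27.3 CPM on 10% fat. Females had 34.9, 22, 19.8 and 28 CPM on 44% fat, against 31.6, 25.9, 27.2 and 31 CPM on 10% fat. The diets overlapped in both sexes and the fold change was 0.02 (SE 0.13, adjusted p = 0.908), with values from -0.10 to 0.11 under the alternatives tried.

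Rsad2, which encodes viperin, rose by 0.82 (SE 0.23), although its neighbour Cmpk2 was not called. Ifit1 and Ifit2 rose by 1.05 (SE 0.24) and 1.35 (SE 0.22), and Bst2, the tetherin that holds virions at the cell surface, by 1.32 (SE 0.20). Xaf1 rose by 1.15 (SE 0.17), Ifi44 by 1.30 (SE 0.29) and Rtp4 by 1.08 (SE 0.18). Smaller rises were seen for Ifi27 (0.67, SE 0.14), Lgals3bp (0.49, SE 0.11), a secreted glycoprotein, and Ifi35 (0.26, SE 0.085).

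The GTPases belong to families that act against intracellular microbes and are raised strongly by interferon gamma. Gbp2 (ENSMUSG00000028270, chromosome 3, 142620602 to 142638008) had 75.6, 76 and 91.9 CPM in males on 44% fat, against 25.7, 17.6 and 46.4 CPM in males on 10% fat. Females had 49.4, 6.45, 9.19 and 22.1 CPM on 44% fat, against 9.77, 5.27, 6.87 and 6.21 CPM on 10% fat. Females again split into a high pair and a pair within the range of 10% fat, and the fold change was 1.54 (SE 0.29, adjusted p = 9.46e-05). Gbp3 (ENSMUSG00000028268, chromosome 3, 142560026 to 142573209) had 35.4, 30.8 and 45.8 CPM in males on 44% fat, against 12.6, 10.9 and 17.8 CPM on 10% fat. Females had 24.4, 3.97, 4.66 and 12.2 CPM on 44% fat, against 5.21, 3.45, 3.03 and 3.26 CPM on 10% fat. The split was the same, with a fold change of 1.52 (SE 0.26, adjusted p = 2.84e-05).

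Gbp7 (ENSMUSG00000040253, chromosome 3, 142530342 to 142550149) had 52.4, 51.9 and 60.3 CPM in males on 44% fat, against 36.1, 27.1 and 31.3 CPM on 10% fat. Females had 45.8, 12.4, 12 and 25.1 CPM on 44% fat, against 18.4, 14.8, 15.1 and 13.1 CPM on 10% fat, so replicates 2 and 3 on 44% fat were below all females on 10% fat. The fold change was 0.72 (SE 0.19, adjusted p = 0.00287), and 0.45 without female 44% fat replicate 1. It was not called with library totals alone (adjusted p = 0.056) or with NZO/HlLtJ libraries alone in the model (adjusted p = 0.0512), with the lowest over the alternatives at 0.000369. The immunity-related GTPases Igtp and Irgm1 rose by 1.32 (SE 0.27) and 0.82 (SE 0.16). These genes belong to families with close copies, and Igtp overlaps Irgm2 on the same strand.

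**Figure D2:**
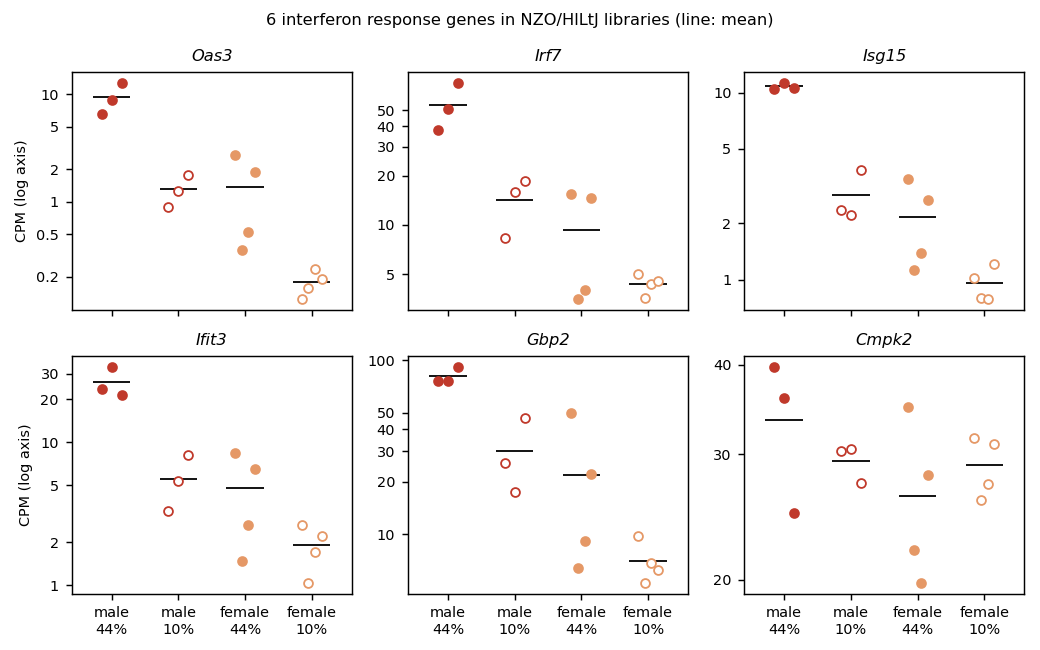
CPM on a log axis of 6 members in the NZO/HlLtJ libraries, by sex and percent fat; points are libraries (filled 44% fat, open 10% fat) and lines are means. Oas3, Irf7, Isg15, Ifit3 and Gbp2 separate by diet in males and split into a high and a low pair in females on 44% fat. Cmpk2 overlaps between the diets in both sexes. Its females on 44% fat also split, with 34.9 and 28 CPM in replicates 1 and 4, against 22 and 19.8 CPM in replicates 2 and 3.

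The spread among NZO/HlLtJ females on 44% fat ran through the whole set. Replicate 1 was above every female on 10% fat for 41 of 41 genes, where 22.4% of all genes tested were. Replicate 4 was above for 33 genes (31% of all genes), replicate 3 for 16 (29.1%) and replicate 2 for 8 (30%). Replicates 2 and 3 were also below every female on 10% fat for 17 and 13 genes, where 30.3% and 30.8% of all genes were. In 38 of 41 genes replicate 1 was the highest of the 4. In males on 44% fat the counts above every male on 10% fat were 38, 39 and 37 in replicates 1, 2 and 3, against 29.6%, 30.8% and 35.8% of all genes.

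Taking all libraries of a group, 37 of 41 genes had every male on 44% fat above every male on 10% fat, where 20% of all genes did; the 4 that overlapped were Usp18, Trim25, Cmpk2 and Lgals3bp. In females 8 of 41 genes separated in this way, where 8.79% of all genes did. They were Zbp1, Oas1a, Oas2, Oas3, Usp18, Ifi27, Lgals3bp and Sp100. Usp18 and Lgals3bp thus separated in females and overlapped in males, through male 10% fat replicate 3, which had 52.5 CPM of Usp18 and 965 CPM of Lgals3bp.

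In females the 5 genes with the smallest adjusted p were Oas3 (2.94, SE 0.49, adjusted p = 0.000102), Zbp1 (2.68, SE 0.55), Lgals3bp (0.67, SE 0.14), Gbp3 (1.60, SE 0.34) and Gbp2 (1.64, SE 0.38). In males they were Ddx58 (0.88, SE 0.13, adjusted p = 7.15e-06), Oas1a (1.92, SE 0.29), Herc6 (1.33, SE 0.21), Xaf1 (1.60, SE 0.26) and Parp9 (0.85, SE 0.14). The count of 19 genes in females was 7 without female 44% fat replicate 1 and 6 when only NZO/HlLtJ libraries entered the model. In males the 5 genes not called were Usp18, Trim25, Samd9l, Cmpk2 and Lgals3bp.

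The difference between the diet effects of the sexes was tested directly. The change was larger in males than in females for 9 of 41 genes and smaller for none, with a median difference of 0.65, where 4.08% of all genes had a larger and 5.18% a smaller change in males. The 9 were Ddx58, Oasl1, Stat2, Herc6, Dtx3l, Parp9, Parp14, Ifit1 and Ifi35, with the smallest adjusted p for Ddx58 (0.73, SE 0.17, adjusted p = 0.00623). Ifi35 differed by 0.73 (SE 0.17), Dtx3l by 0.77 (SE 0.19), Herc6 by 1.08 (SE 0.27) and Ifit1 by 1.67 (SE 0.47). For the 5 GTPases the differences were between -0.19 and 0.16, with SE of 0.32 to 0.56, and none was called. In the same comparison 0 of 19 macrophage markers were called, with a median difference of 0.67. Of 6 islet endocrine markers 1 had a larger and 3 a smaller change in males (median -0.11). A larger change was called for 1 of 16 lymphocyte (median 0.88) and 1 of 12 endothelial markers (median 0.15). Their part in the difference was not tested. This count was the least stable in the set: it was 0 without the 5 libraries that carry transcripts of another strain, 1 without male 44% fat replicate 3, 4 without male 10% fat replicate 2 or female 44% fat replicate 2, 5 without female 44% fat replicate 3, and 16 without female 44% fat replicate 1.

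**Figure D3:**
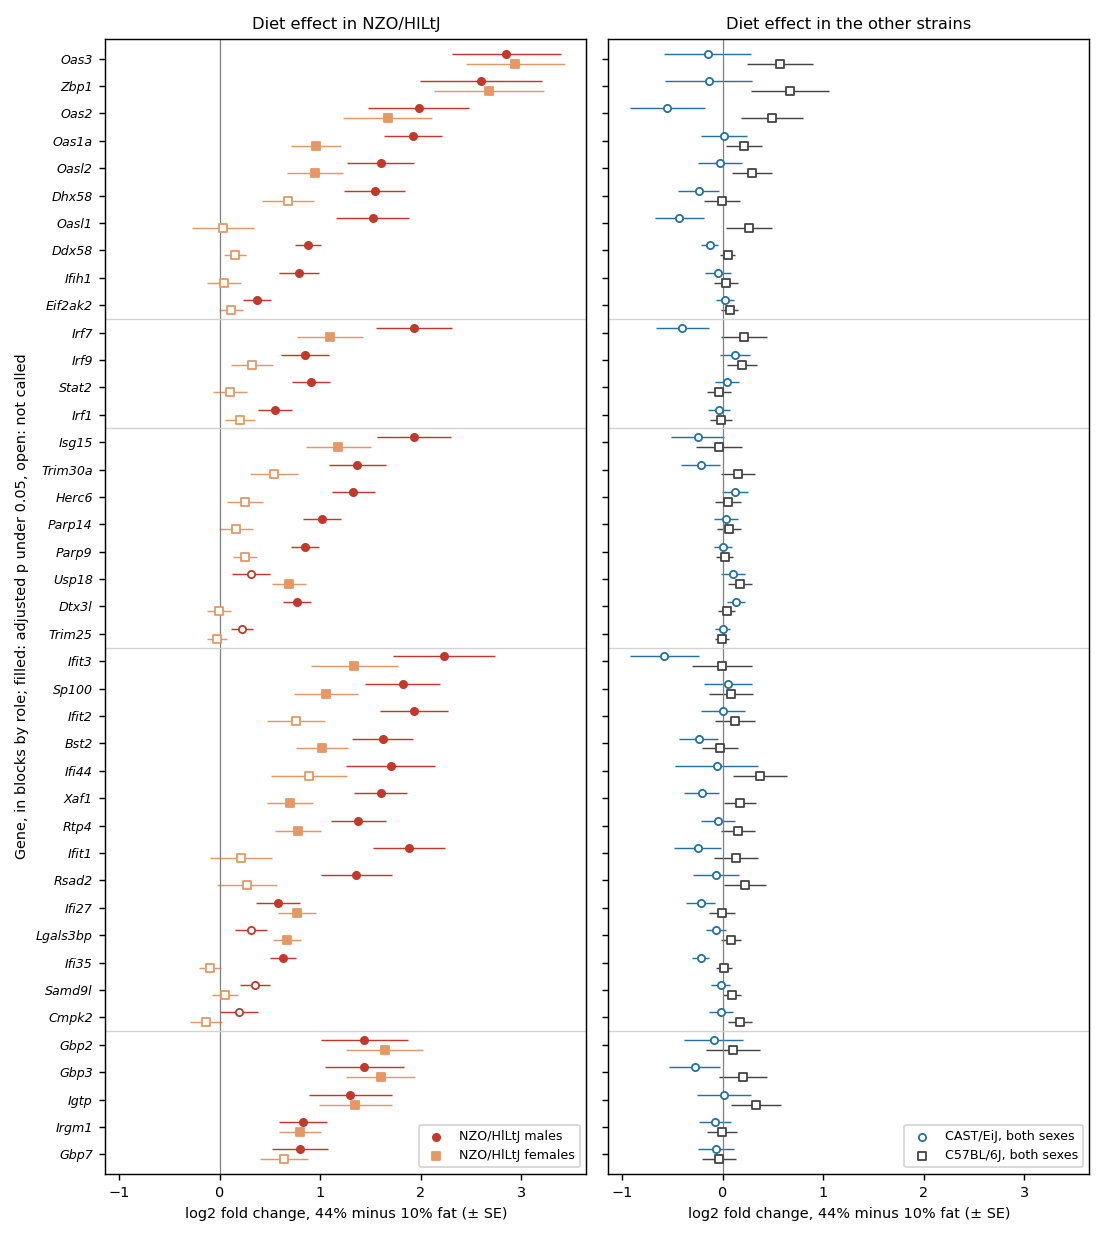
Log2 fold change of each of the 41 genes, 44% minus 10% fat (horizontal axis, points with SE), in blocks by role; the left panel shows NZO/HlLtJ males (circles) and females (squares), the right panel CAST/EiJ (circles) and C57BL/6J (squares) over both sexes. Filled symbols passed an adjusted p of 0.05: 36 in NZO/HlLtJ males, 19 in NZO/HlLtJ females and 0 in each of the other strains.

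In CAST/EiJ and C57BL/6J none of the 41 genes was called for diet. In CAST/EiJ the median fold change was -0.07, with 1 gene at an unadjusted p under 0.05, and 0.0295% of all genes were called higher and 0% lower. In C57BL/6J it was 0.09, with 0 genes at an unadjusted p under 0.05, and 0.0246% of all genes were called higher and 0% lower. DESeq2 and limma on the deposited log2 values also called 0 of the 41 in either strain. Oas3 had a median of 0.0784 CPM (0.0153 to 0.201, n = 8) in CAST/EiJ on 44% fat, against 0.0913 CPM (0.0423 to 0.14, n = 7) on 10% fat. In C57BL/6J it had a median of 0.419 CPM (0.271 to 0.73, n = 8) on 44% fat, against 0.311 CPM (0.12 to 0.52, n = 8) on 10% fat. The ranges overlapped in both strains.

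In CAST/EiJ the genes with the smallest adjusted p were Ifi35 (-0.22, SE 0.083, adjusted p = 0.584), Oasl1 (-0.43, SE 0.24), Ifit3 (-0.58, SE 0.34), Ddx58 (-0.13, SE 0.081) and Ifi27 (-0.22, SE 0.14). In C57BL/6J they were Zbp1 (0.67, SE 0.39), Oas3 (0.57, SE 0.33), Oas2 (0.49, SE 0.31), Oasl2 (0.29, SE 0.20) and Usp18 (0.17, SE 0.12), all with an adjusted p of 1. Irf7 was at a median of 0.816 CPM (0.713 to 1.59) in CAST/EiJ on 44% fat, against 1.23 CPM (0.99 to 1.72) on 10% fat. In C57BL/6J it was at 4.52 CPM (3.32 to 5.43) on 44% fat, against 3.63 CPM (2.19 to 6.48) on 10% fat.

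The diet effect in NZO/HlLtJ exceeded that in CAST/EiJ for 32 of 41 genes and fell short for none, with a median difference of 1.14, where 12.4% of all genes had a higher and 12.5% a lower effect. The smallest adjusted p were those of Bst2 (1.56, SE 0.27, adjusted p = 0.000147), Xaf1 (1.35, SE 0.24), Ddx58 (0.65, SE 0.12), Oas3 (3.04, SE 0.56) and Irf7 (1.91, SE 0.36). Against C57BL/6J it was larger for 27 of 41 and smaller for none, with a median difference of 0.81, where 8.87% of all genes had a higher and 8.57% a lower effect. Here Bst2 (1.35, SE 0.27, adjusted p = 0.00082), Oas3 (2.32, SE 0.49), Isg15 (1.60, SE 0.34), Oas1a (1.23, SE 0.26) and Parp9 (0.53, SE 0.13) led. Both comparisons share the NZO/HlLtJ libraries. Without the 5 libraries that carry transcripts of another strain the counts were 25 against CAST/EiJ and 16 against C57BL/6J.

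On 10% fat the strains already differed. Between NZO/HlLtJ and C57BL/6J, 28 of 41 genes were higher and 4 lower in NZO/HlLtJ, with a median of 0.58, where 22.2% of all genes were higher and 19.9% lower. By sex, the mean log2 CPM of the 41 genes was 3.85 ± 0.16 in NZO/HlLtJ males (SD, n = 3), against 2.72 ± 0.19 in C57BL/6J males (n = 4), but 2.93 ± 0.13 in NZO/HlLtJ females, against 3.02 ± 0.22 in C57BL/6J females (n = 4 each). All 5 GTPases were higher over both sexes, but in females their ranges overlapped for Igtp (7.51 to 10.2 CPM in NZO/HlLtJ, against 7.97 to 10.1 CPM in C57BL/6J), Irgm1 (16.9 to 19.7 CPM, against 15.6 to 19.7 CPM), Gbp3, Gbp7 and Gbp2. Gbp2 had a median of 9.77 CPM (5.27 to 46.4, n = 7) in NZO/HlLtJ, against 3.91 CPM (3.02 to 5.48, n = 8) in C57BL/6J, and differed by 1.82 (SE 0.28, adjusted p = 2.26e-06). Ifi27 had a median of 28.8 CPM (27.2 to 62.1) in NZO/HlLtJ, against 16.1 CPM (13.7 to 25.2) in C57BL/6J, a difference of 1.16 (SE 0.14) with no overlap between the strains. Usp18 (1.01, SE 0.12, adjusted p = 1.33e-08) and Trim30a (1.11, SE 0.18) were also among the 5 with the smallest adjusted p.

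The 4 genes lower in NZO/HlLtJ on 10% fat were Herc6, Rsad2, Cmpk2 and Trim25. Herc6 had a median of 5.56 CPM (4.48 to 9.74) in NZO/HlLtJ, against 11.2 CPM (9 to 12.3) in C57BL/6J, a difference of -0.75 (SE 0.13, adjusted p = 1.69e-05). Cmpk2 had a median of 30.3 CPM (25.9 to 31.6) in NZO/HlLtJ, against 43.7 CPM (34.5 to 54.7) in C57BL/6J, with no overlap and a difference of -0.56 (SE 0.12). Its neighbour Rsad2 differed by -0.70 (SE 0.22) and Trim25 by -0.20 (SE 0.072). On 44% fat Herc6 was at 19.4, 18.5 and 22.5 CPM in NZO/HlLtJ males, past the highest C57BL/6J library on that diet (13.8 CPM). NZO/HlLtJ females on 44% fat had 9.93, 3.84, 4.33 and 6.34 CPM, under the lowest C57BL/6J library on that diet (10.3 CPM).

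CAST/EiJ had the lowest levels: against C57BL/6J on 10% fat 29 of 41 genes were lower and 2 higher, with a median of -0.86, where 23.2% of all genes were lower and 23.8% higher and the median of all genes was 0.017. All 4 transcription factors, 7 of 10 sensors, 7 of 8 genes of the ISG15 system and its ligases, 8 of 14 effectors and 3 of 5 GTPases were lower. Ifih1 had a median of 5.43 CPM (4.35 to 6.99, n = 7) in CAST/EiJ, against 26.6 CPM (21.9 to 34.3, n = 8) in C57BL/6J, a difference of -2.34 (SE 0.14, adjusted p = 2.88e-17). Oas1a had a median of 0.35 CPM (0.298 to 0.407) in CAST/EiJ, against 2.58 CPM (1.86 to 3.4) in C57BL/6J, a difference of -2.86 (SE 0.22, adjusted p = 2.66e-14). Neither gene overlapped between the strains.

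Ifi44 was nearly silent in CAST/EiJ, with a median of 0.142 CPM (0.0424 to 0.19) on 10% fat, against 2.45 CPM (1.64 to 5.19) in C57BL/6J. The fitted difference was -4.41 (SE 0.37, adjusted p = 9.43e-13). On 44% fat the highest CAST/EiJ library for Ifi44 was female replicate 1 at 0.534 CPM, the library with 9.22% of the C57BL/6J marker level. Ddx58 differed by -0.93 (SE 0.082, adjusted p = 2.59e-12). The response was not lower throughout: Usp18 had a median of 37.4 CPM (31.9 to 53.6) in CAST/EiJ, against 13.3 CPM (9.02 to 17.1) in C57BL/6J, a difference of 1.56 (SE 0.12, adjusted p = 1.23e-13). Xaf1 had 3.52 CPM (3 to 4.78) in CAST/EiJ, against 1.77 CPM (1.64 to 2.92) in C57BL/6J, a difference of 0.82 (SE 0.17).

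Between NZO/HlLtJ and CAST/EiJ on 10% fat, 38 of 41 genes were higher and 1 lower in NZO/HlLtJ, with a median of 1.11, where 27.1% of all genes were higher and 26.3% lower. The lower gene was Usp18 (-0.54, SE 0.13). Ifih1 (2.34, SE 0.14), Oas1a (3.54, SE 0.22), Ifi44 (5.16, SE 0.38), Irgm1 (2.28, SE 0.17) and Oasl2 (3.01, SE 0.24) had the smallest adjusted p. Irgm1 had a median of 19.7 CPM (16.9 to 48.8) in NZO/HlLtJ, against 6.04 CPM (4.96 to 6.54) in CAST/EiJ, with no overlap. No source used here says whether alignment allowed for strain variants, and its part in the differences between strains was not tested.

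**Figure D4:**
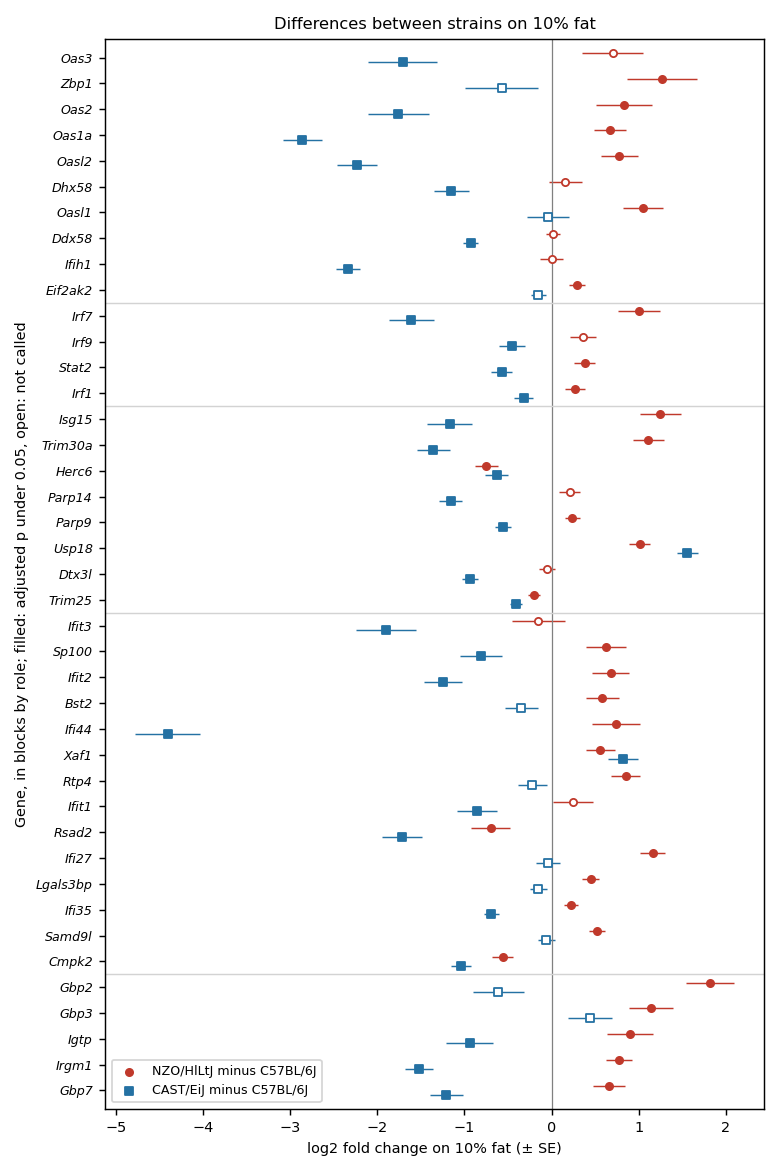
Log2 fold change of each of the 41 genes on 10% fat (horizontal axis, points with SE), in blocks by role, for NZO/HlLtJ minus C57BL/6J (circles) and CAST/EiJ minus C57BL/6J (squares); filled symbols passed an adjusted p of 0.05. Most circles lie right of 0 and most squares left of it, with Ifi44 at -4.41 and Usp18 at 1.56 as the ends of the CAST/EiJ comparison.

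When the sexes were compared on 10% fat, averaged over strains, 0 of 41 genes were called by edgeR and 11 had an unadjusted p under 0.05, where 0.246% of all genes were higher and 0.606% lower in males. DESeq2 called 1. The smallest adjusted p were those of Herc6 (0.36, SE 0.11, adjusted p = 0.109), Igtp (0.72, SE 0.22), Gbp3 (0.65, SE 0.21), Irgm1 (0.40, SE 0.13) and Gbp7 (0.45, SE 0.15).

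Within NZO/HlLtJ on 10% fat the sexes did differ, a comparison added after the values of single libraries had been seen. Here 22 of 41 genes were higher in males and none lower, with a median of 0.88, where 2.84% of all genes were higher and 2.56% lower. All 5 GTPases were among them. Oas3 was at 0.895, 1.25 and 1.77 CPM in males, against 0.124, 0.158, 0.236 and 0.191 CPM in females, a difference of 2.86 (SE 0.51, adjusted p = 0.00101). Irgm1 was at 48, 32.7 and 48.8 CPM in males, against 19.7, 19.2, 16.9 and 18.8 CPM in females, a difference of 1.21 (SE 0.23). Usp18 (0.92, SE 0.18), Gbp3 (1.88, SE 0.36) and Gbp2 (2.09, SE 0.40) followed. The count was 5 without male replicate 3 and 17 to 21 without any other library. Over all genes tested, 576 were called higher and 520 lower in the main test. All calls together ran from 114 to 2292 over the alternatives tried.

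Other parts of the pathway were taken from lists around the 41 genes. None of the 20 interferon ligand genes looked for could be followed, so ligand transcripts were not analysed here. Of the 6 receptor subunits, 4 rose in NZO/HlLtJ on 44% fat and none fell, where 17.3% of all genes rose and 16.9% fell. Il10rb rose by 0.62 (SE 0.078, adjusted p = 3.04e-07), Ifngr1 by 0.61 (SE 0.086), Ifnar2 by 0.54 (SE 0.092) and Ifngr2 by 0.53 (SE 0.099), whereas Ifnar1 (0.15, SE 0.063) and Ifnlr1 (0.14, SE 0.20) were not called. By sex, 5 of 6 rose in males and 2 of 6 in females, where 14.9% and 8.33% of all genes rose.

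Among feedback genes of the receptor pathway, Socs1, an inhibitor of the Janus kinases, rose by 0.78 (SE 0.29, adjusted p = 0.0323), and Pias1, a SUMO ligase, fell by 0.17 (SE 0.061, adjusted p = 0.0241). Of 17 upstream receptors, adaptors and kinases, 10 rose and 1 fell, where 17.3% of all genes rose and 16.9% fell. Irf5 (1.79, SE 0.22, adjusted p = 2.07e-07), Tlr7, the endosomal receptor for single-stranded RNA (2.38, SE 0.33), and Unc93b1, its chaperone (0.87, SE 0.12), had the smallest adjusted p. Several genes of that list are made mainly by macrophages and other myeloid cells.

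Of 68 further interferon-stimulated genes tested, 51 rose and 2 fell in NZO/HlLtJ, with a median of 1.07, where 17.3% of all genes rose and 16.9% fell. Lgals9 (1.29, SE 0.16, adjusted p = 3.43e-07), Ly6e (0.98, SE 0.13) and Slfn9 (1.93, SE 0.25) led. In CAST/EiJ and C57BL/6J none of the 68 was called for diet. On 10% fat 31 of the 68 were higher and 9 lower in NZO/HlLtJ than in C57BL/6J, where 22.2% and 19.9% of all genes were. In CAST/EiJ 5 were higher and 37 lower than in C57BL/6J, where 23.8% and 23.2% of all genes were.

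Markers of immune cells moved with the NZO/HlLtJ result, and their part in it was not tested. Over all genes, 14.9% were called higher on 44% fat in NZO/HlLtJ males and 8.33% in females. All 19 macrophage markers were higher on 44% fat in NZO/HlLtJ males and 16 of 19 in females. Their summed level was 648, 744 and 1180 CPM in males on 44% fat, against 114, 202 and 340 CPM in males on 10% fat. In females it was 286, 191, 232 and 284 CPM on 44% fat, against 87.1, 88.4, 93.7 and 82.3 CPM on 10% fat. All 4 females on 44% fat stood above all females on 10% fat in macrophage markers, while 2 of the 4 stayed at the level of 10% fat in the mean of the 41 genes.

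Over all genes in NZO/HlLtJ, 17.3% rose and 16.9% fell over both sexes, 14.9% and 14.4% in males, and 8.33% and 7.42% in females. Of 16 lymphocyte markers 11 rose in NZO/HlLtJ on 44% fat over both sexes, with 6 called in males and 2 in females. Their summed level was 31.1, 66 and 91.6 CPM in males on 44% fat, against 6.01, 8.84 and 11.1 CPM in males on 10% fat. In females it was 23.6, 2.91, 4.3 and 8.2 CPM on 44% fat, against 3, 3.69, 4.09 and 2.66 CPM on 10% fat, so the 2 libraries with the higher lymphocyte sums were the 2 with the higher interferon response. Of 4 markers of plasmacytoid dendritic cells, which secrete type I interferon, 2 rose over both sexes, with a median fold change of 1.36. By sex, 2 rose in males, while in females none rose and 1 fell. Their sums were 12.1 to 22.6 CPM on 44% fat, against 12.8 to 21.2 CPM on 10% fat. Those sums were mostly Pacsin1, with a median of 22.3 CPM over all libraries, against 0.953 CPM or less for each other marker. Of 12 endothelial markers 7 rose over both sexes (1130 to 1700 CPM on 44% fat, against 1090 to 1330 CPM on 10% fat), with 7 called in males and 1 in females. Of 17 acinar markers 1 rose, with sums of 72700, 130000 and 156000 CPM in males on 44% fat, against 42200, 39300 and 55000 CPM in males on 10% fat. In females the acinar sums overlapped (35000 to 91700 CPM on 44% fat, against 16300 to 80600 CPM on 10% fat). The sum of 6 islet endocrine markers was 119000, 124000 and 74500 CPM in males on 44% fat, against 144000, 163000 and 198000 CPM in males on 10% fat, with no overlap, and 1 of the 6 was called higher and 2 lower. In females the endocrine sums overlapped (143000 to 195000 CPM on 44% fat, against 127000 to 158000 CPM on 10% fat). The T cell markers Cd3e, Cd3d and Cd3g and the macrophage markers Cd163 and Ms4a7 were at 0 in at least 1 library of the series, and the macrophage marker C1qa was at 25.1 to 148 CPM throughout.

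On 10% fat the macrophage sum overlapped between the strains. It had a median of 93.7 CPM (82.3 to 340) in NZO/HlLtJ, 134 CPM (108 to 385) in CAST/EiJ and 118 CPM (93.8 to 139) in C57BL/6J. Of its 19 markers 2 were higher in NZO/HlLtJ than in C57BL/6J, where 22.2% of all genes were higher and 19.9% lower. All 12 endothelial markers were higher in NZO/HlLtJ than in C57BL/6J on 10% fat (sums of 1090 to 1330 CPM, against 598 to 857 CPM), and 6 of 16 lymphocyte markers were higher and 1 lower. Their part in the strain difference was not tested. In NZO/HlLtJ males against females on 10% fat 13 of 19 macrophage markers were higher, where 2.84% of all genes were. In CAST/EiJ male 10% fat replicate 3 the macrophage sum was 385 CPM and the lymphocyte sum 54.2 CPM, against at most 129 and 2.84 CPM in the other 2 males of that group. Its mean of the 41 genes was 1.98, against 1.93 and 1.98 in the others. A few genes were higher in it, with Gbp3 at 7.56 CPM against 3.88 and 3.56 CPM and Sp100 at 5.46 CPM against 2.29 and 2.2 CPM.

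**Figure D5:**
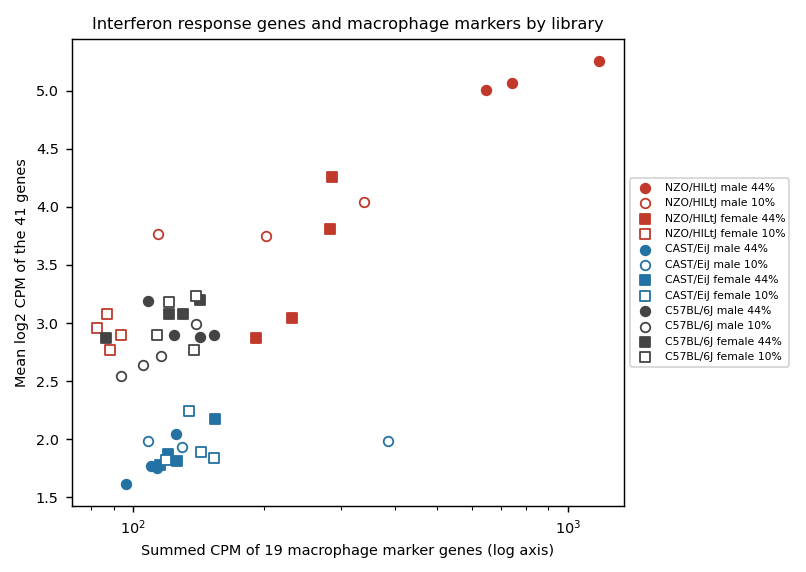
Mean log2 CPM of the 41 genes (vertical axis) against the summed CPM of 19 macrophage markers on a log axis (horizontal axis), each point a library; colour gives the strain, shape the sex, and filled points are 44% fat. NZO/HlLtJ libraries spread from 82.3 to 1180 CPM in the marker sum, and CAST/EiJ libraries stay at or below 2.24 on the vertical axis, with a male library on 10% fat at 385 CPM among them.

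Sample codes start with 76, 80 or 89, without a stated meaning, and these series are unevenly spread over diet within each sex of NZO/HlLtJ. Outside series 76, its males were of series 80 on 44% fat and 89 on 10% fat. Its females outside series 76 were of series 89 on 44% fat and 80 on 10% fat. In those libraries diet and series cannot be told apart. Both comparisons of the sexes in NZO/HlLtJ, in diet effect and on 10% fat, also set series 80 against 89 there. Within series 76, the only series with both diets in both sexes there, the mean of the 41 genes was 5.01 in the male on 44% fat, against 3.77 in the male on 10% fat. The 2 females of that series on 44% fat had 4.26 and 2.87, against 3.08 and 2.77 in the 2 females on 10% fat. With the number series as a factor in the model, 38 genes were called for diet in NZO/HlLtJ, 37 in males and 18 in females. That fit takes the series effect as equal in all strains. It therefore cannot show whether series acts otherwise in NZO/HlLtJ.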

How the data were processed

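Islet RNA of 45 libraries in 12 groups of strain, sex and diet was measured by 150 bp paired-end sequencing, per the labels. The authors deposited estimated counts per gene, which are not normalised and of which 23.6% are not whole, and variance-stabilised values on a log2 scale. GRCm38 and DESeq2 are named in the submitters' processing notes; no source used here names the aligner, the counting program or any allowance for strain variants. Coordinates are GRCm38, from the deposited annotation.

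Estimated counts were rounded. The main test was edgeR 4.0.16's quasi-likelihood F test in R 4.3.3, with TMM factors, its default filter over the 12 groups, robust estimation, all 45 libraries in a model of group means, and Benjamini-Hochberg adjustment over the 20306 genes tested in each of 12 comparisons and 1 added after values were seen. Called means an adjusted p under 0.05; all adjusted p-values in the text come from this test unless another tool is named. SE was derived from the fold change and its F statistic. Comparisons over both sexes average the sexes equally. Mean log2 CPM used a prior count of 2. The code was tested on simulated data.

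The 41 genes, their role lists, the pathway and marker lists and the settings were chosen with earlier results of these data known. Values by library are given for the 2 genes with the largest and the 1 with the smallest diet effect in NZO/HlLtJ of each role list. In other comparisons the 5 genes with the smallest adjusted p are named, with those called against the majority, and of each pathway list up to 3 with the smallest adjusted p; genes named beyond this were chosen after their values were seen.

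Other strains' transcripts were measured as autosomal genes with at least 2 CPM in the source strain and at most 0.05 CPM in the library's own strain on 10% fat. Alternatives were RLE factors, library totals, no filter, DESeq2 1.42.0, limma 3.58.1 on the deposited log2 values, the number series as a factor, the strain's libraries alone, without the 5 libraries named, and each library left out. Counting error at 57.2 M counts or more is small beside the spread between libraries, except for genes at low levels. Oas3 and Ifi44 in CAST/EiJ had as few as 1 count in a library. In NZO/HlLtJ females on 10% fat, Oas3 (0.124 to 0.236 CPM) and Zbp1 (0.191 to 0.442 CPM) were low as well. Their diet effects in females rest on those levels. The spike-in was not analysed here. Some genes of the pathway lists are not reported here. No replicates were near copies of each other.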

Additional observations from a re-analysis of the deposited data

Results flagged for a closer look

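In C57BL/6J males on 44% fat, replicate 3 had a mean log2 CPM of 3.19 over the 41 genes, apart from the other 3 libraries at 2.88 to 2.9. It was above every C57BL/6J male on 10% fat for 26 of 41 genes, where 25.3% of all genes tested were, with Gbp2 at 7.97 CPM against 3.28 to 4.2 CPM in the other 3. Its macrophage sum was 108 CPM, against 124 to 153 CPM in the others, and its lymphocyte sum 6.57 CPM, against 5.47, 32 and 3.99 CPM in replicates 1, 2 and 4. Of 39 such checks of groups, chance marks about 5%.

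The diet effect differed between groups by a direct test of the difference. It was larger in NZO/HlLtJ than in C57BL/6J for 27 of the 41 genes, where 8.87% of all genes were. Against CAST/EiJ it was larger in NZO/HlLtJ for 32, where 12.4% of all genes were. Between the sexes of NZO/HlLtJ it was larger in males for 9, where 4.08% of all genes were. That last count ran from 0 to 17 over the alternatives tried.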

How the results depend on the processing

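Of 301 alternative counts of members called, 283 stayed within 1.5 times the count reported. Among these are 24 for diet in C57BL/6J, 23 in CAST/EiJ and 28 between the sexes on 10% fat over the strains. The count reported there was 0, so such a ratio has no meaning. For males against females in diet effect 13 of 21 stayed. Scaled by library totals alone, the members called were 25 for diet in NZO/HlLtJ, 6 in NZO/HlLtJ females, 6 for NZO/HlLtJ against C57BL/6J diet effects, 19 for NZO/HlLtJ against CAST/EiJ diet effects, 0 for NZO/HlLtJ males against females in diet effect and 10 for males against females on 10% fat in NZO/HlLtJ. With that scaling the median over all genes was -0.151 (against -0.019 with TMM) for diet in NZO/HlLtJ, -0.22 in its females, -0.243 and -0.233 for its diet effect against C57BL/6J and CAST/EiJ, 0.157 for males against females in diet effect, 0.123 between the sexes on 10% fat and -0.103 between them in NZO/HlLtJ. With NZO/HlLtJ libraries alone in the model, 6 members were called in females. Without the 5 libraries with transcripts of another strain, 16 were called for NZO/HlLtJ against C57BL/6J and 0 for males against females in diet effect. For males against females in diet effect, limma on the deposited log2 values called 17. DESeq2 called 1 member between the sexes on 10% fat over the strains. The calls over all genes moved too under the alternatives tried. They ran from 4629 to 7919 for diet in NZO/HlLtJ and from 1205 to 3880 in its females. Its diet effect gave 1316 to 5186 against C57BL/6J, 2443 to 6334 against CAST/EiJ and 164 to 2832 between the sexes. On 10% fat the sexes gave 44 to 376 over the strains and 114 to 2292 in NZO/HlLtJ. The cause was not tested in any of these.

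Leaving out each library in turn gave 35 to 38 members for diet in NZO/HlLtJ, 7 to 23 in females, 28 to 36 in males, 1 to 16 for males against females in diet effect, 20 to 30 against C57BL/6J, 28 to 35 against CAST/EiJ, and 5 to 21 for males against females on 10% fat in NZO/HlLtJ. Of 330 alternative values of single members, 305 kept direction and call, 19 lost the call, 13 of them of Eif2ak2, and 6 changed sign. The sign changes were Trim25 at -0.04 and Cmpk2 at -0.10 with library totals, and Cmpk2 between -0.06 and 0.11 with libraries left out; neither gene was called in any setting. Over all genes, 5944 calls for diet in NZO/HlLtJ males became 2205 without the 5 libraries and 2673 without male 44% fat replicate 3, and 3199 in females became 1303 with the strain's libraries alone. No paired analysis was possible because the labels give no replicate numbers that groups share.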
